A study of Mus musculus with 9 samples.

Results

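The insulin-like growth factor (IGF) system was described across 10 genes, namely the ligand gene *Igf1*, the receptor genes *Igf1r* and *Insr*, the receptor substrate genes *Irs1* and *Irs2*, and the binding protein genes *Igfbp2*, *Igfbp3*, *Igfbp4*, *Igfbp5* and *Igfbp7*. They were taken by symbol from a count table of 55276 symbols, all 10 were found, and all 10 passed the filter on low counts (filterByExpr in edgeR). The table covers PPTR cells, a mouse intrahepatic cholangiocarcinoma line grown in serum-containing medium that was established from liver cancer organoids with several engineered alleles, among them Prom1CreERT2 and Rosa-ZsGreen. Messenger RNA was sequenced from 3 libraries of control cells (Vcam1ctrl, given as wild type in the labels) and from 3 libraries of each of 2 Vcam1 knockout clones (Vcam1KO1 and Vcam1KO2), each condition at different passages. Vcam1 encodes a cell adhesion molecule, and the clones were made to find the genes that depend on it. As the study describes them, all 3 groups are PPTR cells with the same alleles, among them Cre driven by the *Prom1* promoter. No group without these alleles was compared. Each knockout is a single-cell clone obtained with 1 Cas9 guide to exon 2 of *Vcam1*, and an effect of the edit and a property of the founding cell cannot be told apart within a clone.

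IGF1 and IGF2 are secreted peptides that bind the tyrosine kinase receptor encoded by *Igf1r*, while insulin acts mainly through the related receptor encoded by *Insr*. The activated receptors phosphorylate the docking proteins IRS1 and IRS2, which recruit PI3-kinase and so activate AKT. Binding proteins hold IGFs in the extracellular fluid and can prolong their life, keep them from the receptor or deliver them to the cell surface. In liver, hepatocytes secrete most of the circulating IGF1 under the control of growth hormone, and stellate cells and fibroblasts secrete several of the binding proteins. Igfbp7 is related in sequence to the others but binds IGFs weakly and insulin as well.

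The libraries held between 53415907 and 125223073 counts. Within groups the libraries differed well beyond sampling noise (chi-square per degree of freedom from 40.1 to 313), and replicate 3 of Vcam1KO1 stood apart from replicates 1 and 2 of that clone (273 and 313, against 40.8 between those), as did replicate 3 of Vcam1KO2 from its fellows (187 and 127, against 40.1). The control libraries differed as well, with replicate 2 of Vcam1ctrl at 132 and 189 from replicates 1 and 3, against 95.1 between those. *Vcam1* mRNA was lower in both clones (log2 fold change -1.32 in Vcam1KO1 and -1.41 in Vcam1KO2, adjusted p = 3.5e-04 and 2.9e-04, edgeR quasi-likelihood test, Benjamini-Hochberg). The biliary markers *Krt19* and *Epcam* were present in control cells, with at least 126852 and 943 counts per library, and lay at no more than 16 and 6 counts in any clone library, so that these defining markers of the labelled tumor type were near absent from the clones. Of 10 biliary markers 7 were lower and 1 higher in the clones together (edgeR, adjusted p under 0.05), with a median log2 fold change of -9.58. Whether the clones and the control come from the same starting cells was not tested, so that each fold here compares the cells as labelled. *Sox9*, another biliary marker, was detected in all 9 libraries, at 107 to 378 CPM (counts scaled by TMM factors to a common library size, the unit of all levels here unless a length is named). The summed level of 12 markers of hepatic stellate cells and fibroblasts ran from 431 to 836 CPM in Vcam1ctrl, 10474 to 13049 CPM in Vcam1KO1 and 6219 to 7531 CPM in Vcam1KO2 cells. Of these 12 markers 8 were tested and 6 of them were higher in the clones together (edgeR, adjusted p under 0.05). Most of the sum was *Col1a1*, a collagen gene, at 7780 to 9204 CPM in Vcam1KO1 and 4199 to 5008 CPM in Vcam1KO2 libraries. *Dcn*, the decorin gene, went the other way in Vcam1KO1, at 2.16 to 8.35 CPM against 58.3 to 105 CPM in Vcam1ctrl (these 2 genes were chosen after their values were seen), and *Lrat*, which marks quiescent stellate cells, had at most 1 count in any library. The summed level of 10 hepatocyte markers lay at 632 to 1009 CPM in Vcam1ctrl cells and 0.917 to 3.94 CPM in the clones. A sum of 10 proliferation markers was lowest in replicate 3 of Vcam1KO1, at 210 CPM against 795 to 2261 CPM in the other libraries. In such bulk libraries, fewer cells of a kind and less RNA per cell cannot be told apart.

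Of the binding protein genes, *Igfbp2*, *Igfbp3* and *Igfbp5* differed between the clones, and the sequence just upstream of each is shown to let these 3 be compared. *Igfbp2* (chromosome 1, 72824503 to 72852474, plus strand) and *Igfbp5* (chromosome 1, 72857932 to 72874884, minus strand) are neighbours that lie tail to tail with 5457 bp between them. *Igfbp3* (chromosome 11, 7206086 to 7213923, minus strand) lies 3539 bp from *Igfbp1* in the same arrangement. Gene positions are on GRCm38 with GENCODE vM21, a different release of the annotation from that used for the counts. The promoter windows are those of RefSeq on GRCm38.p6 and hold the 250 bases before the start of transcription, at chr1:72824230-72824479 for *Igfbp2*, chr1:72874866-72875115 for *Igfbp5* and chr11:7213924-7214173 for *Igfbp3*. The last bases of the *Igfbp5* window lie in the first exon as GENCODE annotates it. Each is printed 5′ to 3′ on the strand of its gene, with CpG dinucleotides in capitals:
Igfbp2: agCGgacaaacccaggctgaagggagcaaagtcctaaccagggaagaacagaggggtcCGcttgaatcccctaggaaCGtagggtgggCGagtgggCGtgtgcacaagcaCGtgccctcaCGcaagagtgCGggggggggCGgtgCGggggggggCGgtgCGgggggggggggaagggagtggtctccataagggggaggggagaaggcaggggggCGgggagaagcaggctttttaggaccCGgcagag
Igfbp5: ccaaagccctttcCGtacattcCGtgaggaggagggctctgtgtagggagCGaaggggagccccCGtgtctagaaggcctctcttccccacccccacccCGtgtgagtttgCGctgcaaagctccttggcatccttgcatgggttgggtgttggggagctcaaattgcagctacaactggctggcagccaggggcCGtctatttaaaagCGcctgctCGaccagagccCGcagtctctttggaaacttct
Igfbp3: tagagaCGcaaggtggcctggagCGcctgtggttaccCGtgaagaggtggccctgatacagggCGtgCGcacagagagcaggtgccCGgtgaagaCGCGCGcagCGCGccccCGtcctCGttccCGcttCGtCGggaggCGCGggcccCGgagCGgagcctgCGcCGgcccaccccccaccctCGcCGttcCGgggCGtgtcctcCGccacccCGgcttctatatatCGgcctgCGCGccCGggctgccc
The *Igfbp3* window held 32 CpG dinucleotides, the *Igfbp2* window 14 and the *Igfbp5* window 10, against a median of 6 (quartiles 2 and 16) over 32851 RefSeq windows of that length. Windows were found for 9 of the 10 genes, all but *Insr*. The other genes with a window had 42 CpG dinucleotides (*Igf1r*), 34 (*Irs2*), 28 (*Irs1*), 26 (*Igfbp7*), 22 (*Igfbp4*) and 5 (*Igf1*), and a second *Igfbp2* window, at chr1:72825137-72825386, had 11. This second window and that of *Igf1*, at chr10:87860861-87861110, lie inside their genes as GENCODE places them. A FOXO motif (TGTTTAC on either strand) was in 0 of the 10 windows and in 3.17% of all windows. An E-box of the form CACCTG, on either strand, was in the window of *Igfbp3* and in 17.2% of all windows. Other forms of the E-box were not counted. A GC box (GGGCGG on either strand) was in 5 of the 10 windows, those of *Igf1r*, *Igfbp2*, *Igfbp7*, *Irs1* and *Irs2*, and in 32.7% of all windows. These matches describe the letters in the windows, and no binding was measured.

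Across the clones together, the ligand gene *Igf1*, the substrate gene *Irs1* and the binding protein genes *Igfbp2* and *Igfbp7* were higher than in control cells. That comparison set the 6 clone libraries against the 3 control libraries in 1 fit, in which differences between the clones count as spread. A gene was called at an adjusted p under 0.05 by the quasi-likelihood test of edgeR, with p-values adjusted by Benjamini-Hochberg over the 17672 genes that passed the filter. By this rule 4 of the 10 genes were called, 4 higher and 0 lower, beside 43.0% of all genes tested. At an unadjusted p under 0.05 in edgeR 1 gene was lower (*Irs2*), and limma-voom and DESeq2 each called 1 lower at an adjusted p under 0.05, again *Irs2*, while DESeq2 called 5 higher, with *Igfbp5* added. The clone and control libraries did not overlap at 5 of the 10 genes, beside 44.2% of all genes. In separate contrasts that share the control libraries, 6 genes were called in Vcam1KO1 (5 higher, 1 lower), beside 59.9% of all genes, and 5 in Vcam1KO2 (4 higher, 1 lower), beside 51.4%. Between the clones 3 genes were called, beside 38.7% of all genes. Each of these shares was near that of all genes tested or below it, so that the number of calls is no result about the IGF genes. The median log2 fold change of the 10 genes was 0.49 for the clones together, beside 0.07 for all genes, with 0.50 in Vcam1KO1 (all genes 0.02) and -0.18 in Vcam1KO2 (all genes 0.0044).

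**Figure D1:**
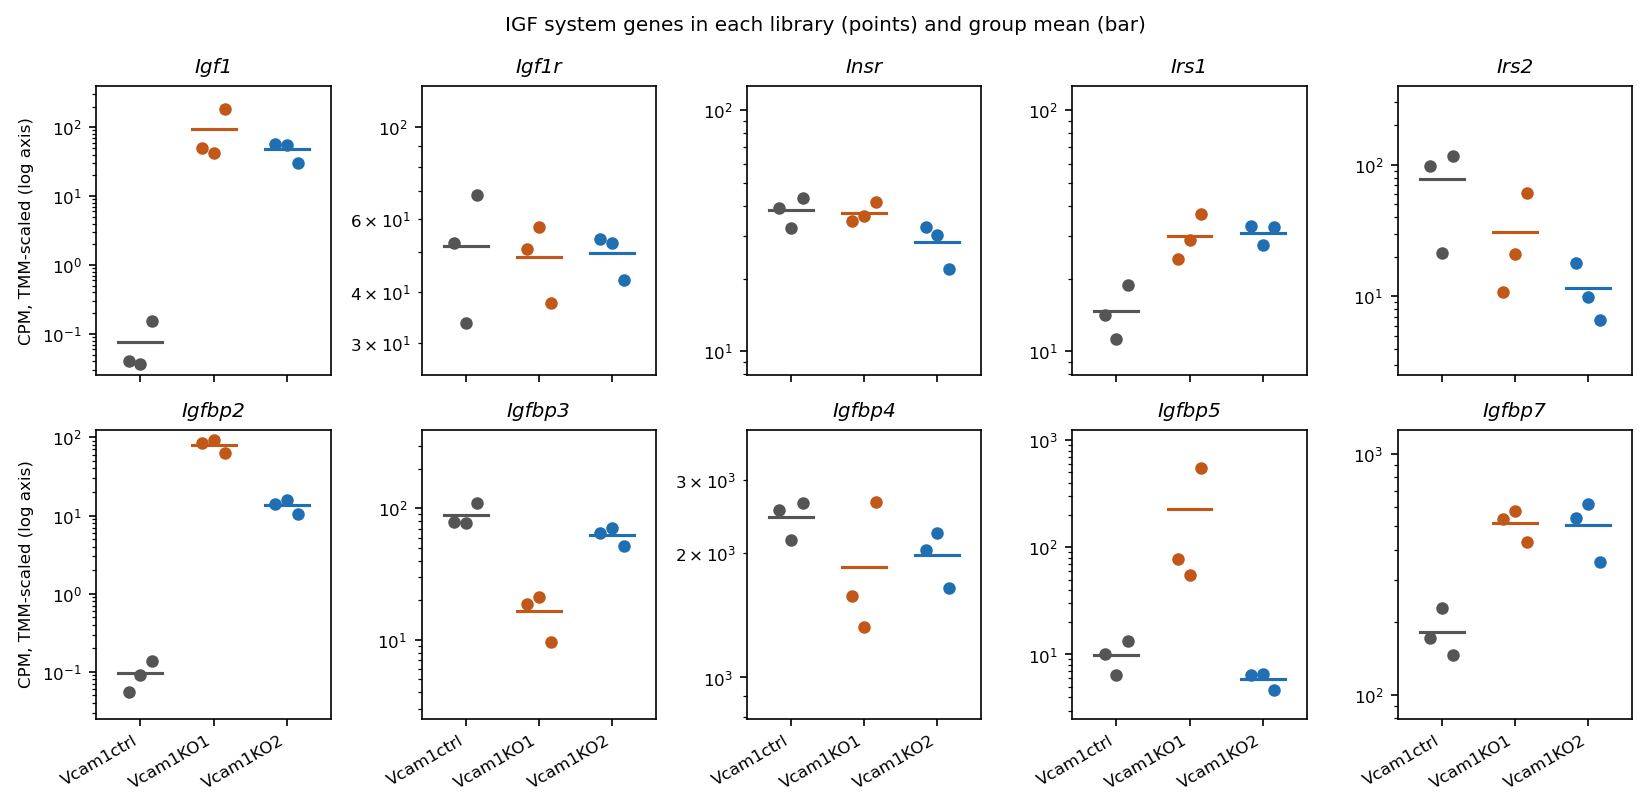
Levels of the 10 genes in CPM, on a log axis whose range differs between panels, with 1 point per library and a bar at the mean of each group of 3 libraries. *Igf1* and *Igfbp2* sit below 0.2 CPM in every Vcam1ctrl library and above 10 CPM in every clone library, while the libraries of the 3 groups overlap for *Igf1r*.

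*Igf1*, the ligand gene (chromosome 10, 87858265 to 87937042, plus strand), was close to absent from control cells. The 3 Vcam1ctrl libraries held 5, 2 and 12 counts of it, or 0.0398, 0.0369 and 0.152 CPM. Their 19 counts in all have an exact Poisson 95% interval of 11.4 to 29.7, which covers counting error only. In Vcam1KO1 libraries *Igf1* stood at 49.4, 42.5 and 187 CPM. In Vcam1KO2 libraries it stood at 58.2, 55.1 and 30.3 CPM. Every clone library thus lay above every control library by a wide margin, and replicate 3 of Vcam1KO1 was the highest. The log2 fold change was 9.84 (SE 0.99) for the clones together, 10.25 (SE 0.89) in Vcam1KO1 and 9.30 (SE 0.87) in Vcam1KO2 (adjusted p = 5.7e-05, 1.0e-05 and 2.1e-05, edgeR quasi-likelihood test). Because so few control counts stand behind these folds, their size is less certain than their direction, and without any 1 library the value for the clones together ran from 9.26 to 10.76. No difference between the clones was called (log2 difference 0.96, 95% interval -0.27 to 2.18, adjusted p = 0.19, edgeR), and without replicate 3 of Vcam1KO1 that difference was -0.060. *Igf2*, the other ligand gene, moved alike, from 0.127 ± 0.087 CPM (SD, n = 3) in Vcam1ctrl to 376 ± 272 CPM (SD, n = 3) in Vcam1KO1 and 406 ± 256 CPM (SD, n = 3) in Vcam1KO2 cells, and *Igf2r*, whose product clears IGF2 from the cell surface, was not called in the clones together (log2 fold change 0.31, adjusted p = 0.25, edgeR quasi-likelihood test). Of the 8 tested stellate cell and fibroblast markers, 5 were higher and 1 lower in Vcam1KO1 and 6 were higher in Vcam1KO2, and their part in this result was not tested.

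Neither receptor gene was called in any comparison. *Igf1r* (chromosome 7, 67952827 to 68233668, plus strand), which encodes the receptor of IGF1 and IGF2, stood at 52.4, 33.7 and 68.5 CPM in Vcam1ctrl, 50.9, 57.4 and 37.6 CPM in Vcam1KO1 and 53.6, 52.5 and 42.6 CPM in Vcam1KO2 libraries. The control libraries spanned the widest range and all clone libraries fell within it. The log2 fold change of the clones together was -0.07 (95% interval -0.56 to 0.42, adjusted p = 0.81, edgeR quasi-likelihood test), so that a change of 2-fold in either direction lies outside the interval. *Insr* (chromosome 8, 3122061 to 3279617, minus strand), the insulin receptor gene, stood at 39.3, 32.3 and 43.4 CPM in Vcam1ctrl, 34.6, 36.3 and 41.7 CPM in Vcam1KO1 and 32.6, 30.2 and 21.9 CPM in Vcam1KO2 libraries. Its log2 fold change was -0.22 (95% interval -0.65 to 0.21) for the clones together, and neither that nor Vcam1KO1 (-0.03) was called (adjusted p = 0.38 and 0.89, edgeR quasi-likelihood test). In Vcam1KO2 *Insr* had a log2 fold change of -0.44 (SE 0.17), with an adjusted p of 0.056 in edgeR, just short of the threshold. The call was made with DESeq2 (adjusted p = 0.032), limma-voom (0.044) and 2 other normalizations in edgeR's quasi-likelihood test (0.030 and 0.043). With 1 library left out at a time, the Vcam1KO2 value ran from -0.58 to -0.31, at an adjusted p of 0.022 to 0.16 (edgeR quasi-likelihood test). The call thus rests on the choice of method and of libraries. The ratio of *Insr* to *Igf1r*, taken within each library from counts per base of coding sequence, had a mean log2 value of -0.38 ± 0.30 (SD, n = 3) in Vcam1ctrl and -0.59 ± 0.39 (SD, n = 6) in the clones (two-sided exact permutation p = 0.43). It was -0.83 ± 0.12 (SD, n = 3) in Vcam1KO2 cells, below all 3 control libraries, at the smallest p that an exact permutation test of 3 against 3 allows (0.10).

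*Irs1* was higher in both clones, while *Irs2* was lower in Vcam1KO2. *Irs1* (chromosome 1, 82233101 to 82291416, minus strand) encodes a docking protein of both receptors. It stood at 14.1, 11.3 and 18.8 CPM in Vcam1ctrl, 24.0, 28.8 and 36.9 CPM in Vcam1KO1 and 32.9, 27.5 and 32.6 CPM in Vcam1KO2 libraries, with no overlap of clone and control libraries. It had a log2 fold change of 1.05 (SE 0.20) for the clones together, 1.02 (SE 0.21) in Vcam1KO1 and 1.07 (SE 0.21) in Vcam1KO2 (adjusted p = 0.0024, 0.0025 and 0.0023, edgeR quasi-likelihood test). No difference between the clones was called by the same test (log2 difference -0.05, 95% interval -0.53 to 0.42, adjusted p = 0.87, edgeR).

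*Irs2* (chromosome 8, 10984681 to 11008458, minus strand), the other widely expressed docking protein gene, stood at 98.7, 21.2 and 116 CPM in Vcam1ctrl, 10.8, 20.9 and 61.5 CPM in Vcam1KO1 and 18.1, 9.88 and 6.60 CPM in Vcam1KO2 libraries. Replicate 2 of Vcam1ctrl was low for its group and replicate 3 of Vcam1KO1 high for its clone, and these overlap. In Vcam1KO2 *Irs2* was lower, with a log2 fold change of -2.78 (SE 0.77, adjusted p = 0.013, edgeR quasi-likelihood test). In Vcam1KO1 the value was -1.34 (SE 0.73) and was not called (adjusted p = 0.14, edgeR quasi-likelihood test). For the clones together it was -1.89 (SE 0.71, adjusted p = 0.056, edgeR quasi-likelihood test). Both uncalled contrasts depended on which library was left out. With 1 library left out at a time, the adjusted p ran from 0.0051 to 0.19 for the clones together (edgeR quasi-likelihood test). In Vcam1KO1 it ran from 0.021 to 0.33 (same edgeR test). The weakest log2 fold changes were -1.50 and -0.96. The call in Vcam1KO2 held, at an adjusted p of at most 0.0497 (same edgeR test). Without replicate 3 of Vcam1KO1 the log2 fold change of *Irs2* was -2.57 for the clones together and -2.31 in Vcam1KO1 (adjusted p = 0.0051 and 0.021, edgeR quasi-likelihood test). Without replicate 2 of Vcam1ctrl, the smallest library, the values were -2.40 and -1.87 (adjusted p = 0.029 and 0.038, same edgeR test). With all libraries limma-voom and DESeq2 called *Irs2* lower in the clones together (adjusted p = 0.040 and 0.018).

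The balance of the substrates was also read within each library, as the ratio of *Irs2* to *Irs1* counts per base of coding sequence, which does not depend on library scaling. In Vcam1ctrl libraries *Irs2* exceeded *Irs1*, by 6.51, 1.75 and 5.77 times. In Vcam1KO1 libraries the ratio was 0.420, 0.676 and 1.55, and in Vcam1KO2 libraries it was 0.512, 0.335 and 0.189. Every clone library thus lay below every control library. The mean log2 ratio was 2.01 ± 1.05 (SD, n = 3) in Vcam1ctrl and -1.02 ± 1.02 (SD, n = 6) in the clones, a difference of -3.04 (two-sided exact permutation p = 0.024, the smallest p for 6 against 3 libraries). The 6 libraries come from 2 clones and are not independent, so that this p measures the spread between libraries only. Over the 12 exact tests of ratios and sums made here, the adjusted p was 0.20. Most of those tests set 3 against 3 libraries, where p cannot fall below 0.10. No result could therefore pass this correction, and it does not decide whether the ratio differed. Within clones the difference was -2.41 and -3.66, each at an exact permutation p of 0.10, the smallest possible for 3 against 3.

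**Figure D2:**
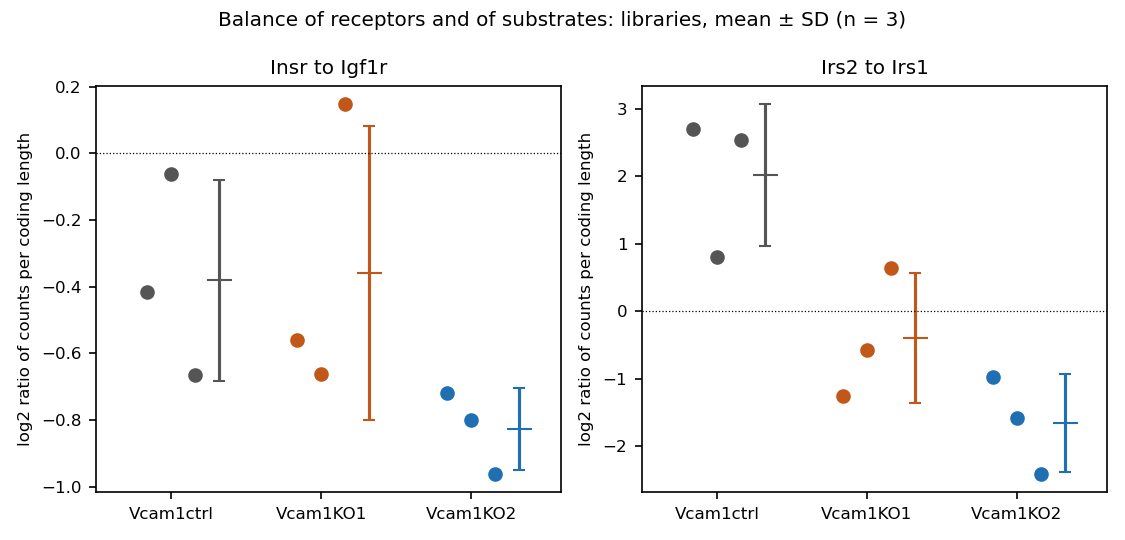
Log2 ratio of *Insr* to *Igf1r* and of *Irs2* to *Irs1* in each library, from counts per base of coding sequence, with 1 point per library and a bar for the mean and SD of 3 libraries beside them. For *Irs2* to *Irs1* the control libraries sit at 0.81 or above and the clone libraries at 0.63 or below, while the groups overlap for *Insr* to *Igf1r* between Vcam1ctrl and Vcam1KO1.

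Among the binding proteins, *Igfbp7* and *Igfbp2* were higher in both clones. *Igfbp7* (chromosome 5, 77349240 to 77408041, minus strand) stood at 172, 230 and 146 CPM in Vcam1ctrl, 537, 576 and 430 CPM in Vcam1KO1 and 541, 617 and 354 CPM in Vcam1KO2 libraries. The clone libraries did not overlap the control libraries, and the log2 fold change was 1.48 (SE 0.22) for the clones together, with 1.49 and 1.46 in the clones (adjusted p = 6.6e-04, 5.1e-04 and 7.0e-04, edgeR quasi-likelihood test). No difference between the clones was called (log2 difference 0.03, 95% interval -0.50 to 0.56, adjusted p = 0.93, edgeR). *Igfbp2*, a binding protein gene of fetal liver and of many tumors, had 7, 5 and 11 counts in the Vcam1ctrl libraries, or 0.0558, 0.0923 and 0.139 CPM. It stood at 84.8, 91.4 and 62.7 CPM in Vcam1KO1 libraries and at 13.98, 15.8 and 10.53 CPM in Vcam1KO2 libraries, so that the 3 groups were separate from each other. The log2 fold change was 8.95 (SE 1.2) for the clones together, 9.75 (SE 0.35) in Vcam1KO1 and 7.18 (SE 0.33) in Vcam1KO2 (adjusted p = 3.4e-04, 8.0e-08 and 3.8e-07, edgeR quasi-likelihood test). As for *Igf1*, 23 control counts in all (exact Poisson 95% interval 14.6 to 34.5) stand behind these folds. The level in Vcam1KO1 was 5.92 times that in Vcam1KO2 (log2 difference 2.57, SE 0.23, adjusted p = 6.2e-05, edgeR quasi-likelihood test).

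*Igfbp3*, whose product carries most of the IGF in plasma, was lower in 1 clone. It stood at 78.2, 77.9 and 111 CPM in Vcam1ctrl, 18.9, 21.1 and 9.70 CPM in Vcam1KO1 and 65.4, 70.7 and 51.6 CPM in Vcam1KO2 libraries. Both clones lay below the control libraries, but the gap to Vcam1KO2 was narrow. The log2 fold change was -2.42 (SE 0.28, adjusted p = 7.2e-05) in Vcam1KO1 and -0.51 (SE 0.27, adjusted p = 0.15) in Vcam1KO2 (edgeR quasi-likelihood test). The difference between the clones was itself past the threshold (-1.92, SE 0.28, adjusted p = 8.2e-04, edgeR quasi-likelihood test), and with the clones together *Igfbp3* was not called (-1.17, adjusted p = 0.12, same edgeR test). Its uncalled value in Vcam1KO2 passed when replicate 3 of Vcam1KO1 was left out of the shared fit (-0.50, adjusted p = 0.031, edgeR quasi-likelihood test) and in a fit on the 6 libraries of Vcam1KO2 and Vcam1ctrl (-0.51, adjusted p = 0.043). With 1 library left out at a time, the Vcam1KO2 value ran from -0.62 to -0.32, at an adjusted p of up to 0.40 (edgeR quasi-likelihood test).

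*Igfbp5*, a binding protein gene that fibroblasts and smooth muscle express and whose product adheres to matrix, was higher in Vcam1KO1. It stood at 10.2, 6.44 and 13.4 CPM in Vcam1ctrl, 78.3, 55.8 and 549 CPM in Vcam1KO1 and 6.41, 6.55 and 4.63 CPM in Vcam1KO2 libraries. All Vcam1KO1 libraries were above all others, and replicate 3 of that clone was far above its other libraries. The log2 fold change was 4.51 (SE 0.84, adjusted p = 0.0013) in Vcam1KO1 and -0.77 (SE 0.75, adjusted p = 0.42) in Vcam1KO2 (edgeR quasi-likelihood test), with a difference between the clones of 5.28 (SE 0.88, adjusted p = 0.0016, same edgeR test). Replicate 3 of Vcam1KO1 set the size of these values but not their calls. Without it the log2 fold change in Vcam1KO1 was 2.75 (adjusted p = 6.3e-05) and the difference between the clones 3.52 (adjusted p = 7.3e-05, edgeR quasi-likelihood test). The uncalled value in Vcam1KO2 was the same without that library, -0.77, and then passed at an adjusted p of 0.036 in edgeR. With 1 library left out at a time, the Vcam1KO2 value ran from -1.03 to -0.51, at an adjusted p of up to 0.66 (edgeR quasi-likelihood test). With the clones together *Igfbp5* was not called (3.54, SE 1.69, adjusted p = 0.12, edgeR quasi-likelihood test). *Igfbp2* and *Igfbp5*, neighbours on chromosome 1, thus both stood higher in Vcam1KO1 than in Vcam1KO2, while against control *Igfbp2* was higher in both clones. Between the clones, 4 of the 8 tested stellate cell and fibroblast markers were higher and 2 lower in Vcam1KO1, and their part in the levels of *Igfbp2*, *Igfbp5* and *Igfbp7* was not tested.

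*Igfbp4* (chromosome 11, 99041244 to 99054392, plus strand) encodes an inhibitory binding protein that liver secretes. It was the most abundant of the 10 genes, at 2549, 2157 and 2642 CPM in Vcam1ctrl, 1571, 1323 and 2651 CPM in Vcam1KO1 and 2035, 2241 and 1649 CPM in Vcam1KO2 libraries. By mean CPM it ranked 19th of all genes in Vcam1ctrl, 32nd in Vcam1KO1 and 28th in Vcam1KO2 cells. It was not called in any contrast, with log2 fold changes of -0.36 (95% interval -0.86 to 0.14) for the clones together, -0.41 in Vcam1KO1 and -0.31 in Vcam1KO2 (adjusted p = 0.22, 0.19 and 0.33, edgeR quasi-likelihood test). Without replicate 3 of Vcam1KO1 *Igfbp4* was lower in that clone (-0.75, adjusted p = 0.0041, edgeR quasi-likelihood test). With 1 library left out at a time, its adjusted p in that clone reached 0.49 (same edgeR test).

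**Figure D3:**
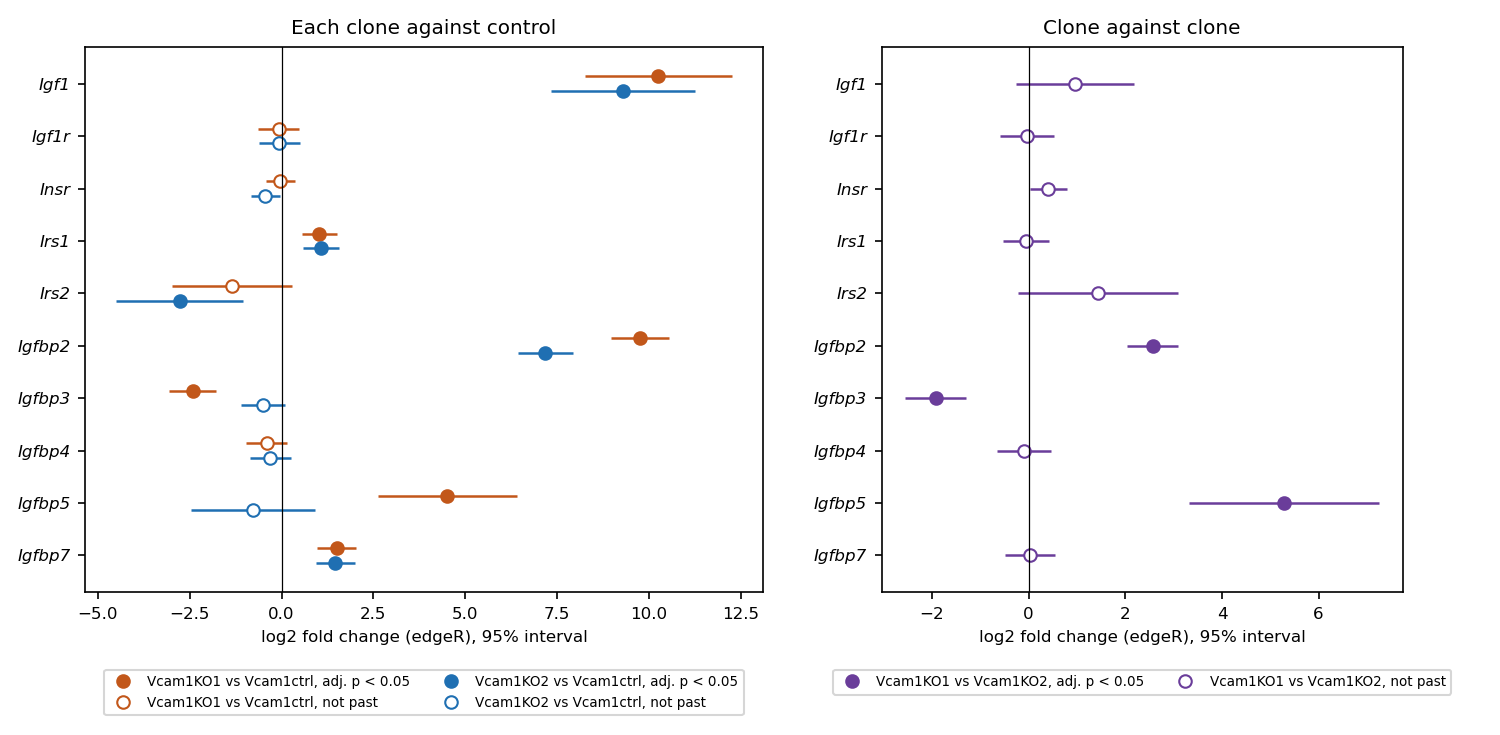
Log2 fold changes of the 10 genes with 95% intervals from edgeR's quasi-likelihood fit, for each clone against the same 3 control libraries on the left and for Vcam1KO1 against Vcam1KO2 on the right, with filled points where the adjusted p is under 0.05. *Igf1*, *Irs1*, *Igfbp2* and *Igfbp7* are to the right of 0 in both clones, and *Igfbp2* (2.57), *Igfbp3* (-1.92) and *Igfbp5* (5.28) are the filled points between the clones.

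The makeup of the 5 binding protein transcripts was compared per length, in CPM per kb of the longest coding transcript, since levels of different genes can be set side by side only on such a scale. Their summed level was 830 ± 37.4 CPM per kb (SD, n = 3) in Vcam1ctrl and 995 ± 160 CPM per kb (SD, n = 6) in the clones, a log2 difference of 0.25 that did not exceed the spread (two-sided exact permutation p = 0.14, 0.24 adjusted over the 12 exact tests). Without division by length, the sums ran from 2471 to 2912 CPM in Vcam1ctrl libraries and from 2068 to 3703 CPM in clone libraries, so that the clone range held all control libraries. The share of each gene is given per length, without a test, and depends on the transcript length taken for each gene. *Igfbp4* made up 76.9% ± 4.75 (SD, n = 3) of the sum in Vcam1ctrl, 46.4% ± 10.4 (SD, n = 3) in Vcam1KO1 and 53.4% ± 3.11 (SD, n = 3) in Vcam1KO2 cells, and all control libraries (71.5% or more) lay above all clone libraries (58.0% or less). *Igfbp7* made up 18.5% ± 5.24 (SD, n = 3) in Vcam1ctrl, 43.3% ± 11.8 (SD, n = 3) in Vcam1KO1 and 42.7% ± 3.25 (SD, n = 3) in Vcam1KO2 cells. *Igfbp2* took 0.0088% in Vcam1ctrl, 6.18% in Vcam1KO1 and 1.06% in Vcam1KO2 cells, and *Igfbp3* took 4.41%, 0.705% and 2.68%. *Igfbp5* took 0.199% in Vcam1ctrl and 0.101% in Vcam1KO2 cells, and in Vcam1KO1 libraries 1.38%, 1.02% and 7.66%, the last of these in replicate 3. These shares add up to the whole within a library, so that they are not independent of each other.

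**Figure D4:**
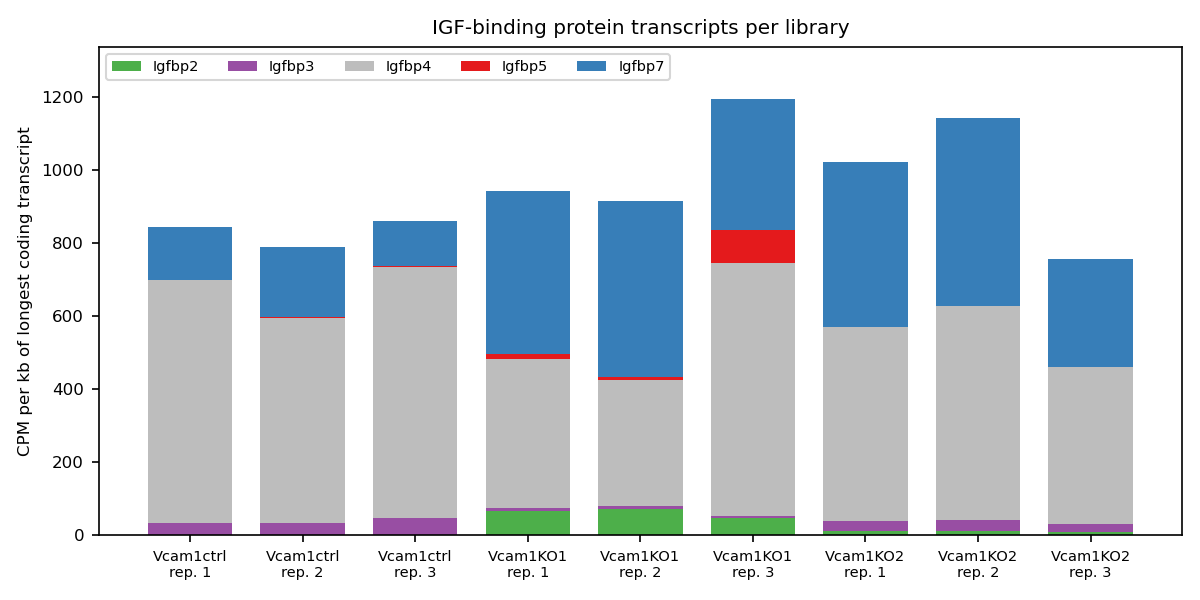
Stacked levels of the 5 binding protein transcripts in each of the 9 libraries, in CPM per kb of the longest coding transcript. *Igfbp4* fills most of each Vcam1ctrl bar and *Igfbp7* a larger share of each clone bar, and *Igfbp5* is visible mainly in replicate 3 of Vcam1KO1.

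On the same scale per length, the order of the 10 genes in Vcam1ctrl cells ran from *Igfbp4* (639 ± 67.3 CPM per kb, SD, n = 3) through *Igfbp7* (152 ± 35.8), *Igfbp3* (36.7 ± 7.75), *Irs2* (12.5 ± 8.0), *Igf1r* (4.52 ± 1.53), *Insr* (4.10 ± 0.60), *Igfbp5* (1.66 ± 0.58) and *Irs1* (1.61 ± 0.41) to *Igfbp2* (0.0732 ± 0.0320) and *Igf1* (0.0108 ± 0.0093). Neighbours whose control libraries overlapped were *Irs2* and *Igf1r*, *Igf1r* and *Insr*, and *Igfbp5* and *Irs1*. *Igf1*, the lowest of the 10 in control cells, held the 5th place by its mean in both clones, at 13.2 ± 11.6 CPM per kb (SD, n = 3) in Vcam1KO1 and 6.79 ± 2.17 CPM per kb (SD, n = 3) in Vcam1KO2 cells. *Igfbp2* reached the 3rd place in Vcam1KO1 (60.9 ± 11.5 CPM per kb, SD, n = 3) and the 4th in Vcam1KO2 (10.3 ± 2.06 CPM per kb, SD, n = 3). Both places are loose, since in Vcam1KO1 the libraries of *Igf1* overlapped those of *Igfbp5* and *Igfbp3*, and those of *Igfbp2* those of *Igfbp5*, while in Vcam1KO2 *Igf1* overlapped *Igfbp2* and *Igf1r*. The mean of *Igf1* in Vcam1KO1 rests on replicate 3, at 26.6 CPM per kb against 6.02 in the lowest library. *Igfbp4* and *Igfbp7* stayed first and second in every group, and in both clones, unlike in control cells, their libraries overlapped.

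The genes nearest in pattern were found by the root mean square difference of log2 CPM, centred on each gene's mean, over the 9 libraries and all genes tested. For *Igf1r* they were *Utrn* (0.12), *Axl* (0.15) and *Vsig10* (0.17), which like *Igf1r* were close to level across the groups. *Axl*, a receptor tyrosine kinase gene, stood at a mean of 374 CPM in Vcam1ctrl, 385 CPM in Vcam1KO1 and 386 CPM in Vcam1KO2 cells. For *Igf1* they were *Megf10* (0.67), *Hp* (0.89) and *Eya4* (0.95). *Megf10*, a gene for a phagocytic receptor, stood at means of 0.0574, 41 and 31.7 CPM in Vcam1ctrl, Vcam1KO1 and Vcam1KO2 cells, and *Hp*, the haptoglobin gene, at 0.530, 192 and 69.8 CPM. The 9 libraries fall into 3 groups, so that any genes with like group means come out as near.

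Other genes of the pathway were counted in lists by role. In the clones together 43.0% of all genes tested were called, 21.7% higher and 21.2% lower, with a median log2 fold change of 0.07, and the share called in each list is given to be read beside these. The lists are small and their shares were not tested. Of 11 other IGF ligand, binding protein and related genes, 4 were tested, and in the clones together *Igf2* was the 1 called (25% of the list), higher, with 0 lower (0 lower at an unadjusted p under 0.05 in edgeR, 1 with limma-voom and 0 with DESeq2). Of 9 tested IGFBP proteases and their inhibitors, 6 were higher (66.7%) and 0 lower (1 lower at an unadjusted p under 0.05 in edgeR, and 1 each with limma-voom and DESeq2), with a median log2 fold change of 1.41. *Htra1*, a secreted serine protease gene, rose from 68.8 ± 13.9 CPM (SD, n = 3) in Vcam1ctrl to 719 ± 194 CPM (SD, n = 3) in Vcam1KO1 and 692 ± 144 CPM (SD, n = 3) in Vcam1KO2 cells (log2 fold change of the clones together 3.36, adjusted p = 9.6e-06, edgeR quasi-likelihood test). *Adam12*, a metalloprotease gene whose product cleaves Igfbp3 and Igfbp5, rose from 1.82 ± 0.89 CPM (SD, n = 3) to 205 ± 68.7 CPM (SD, n = 3) in Vcam1KO1 and 21.3 ± 2.62 CPM (SD, n = 3) in Vcam1KO2 cells, and the clones differed in it by 3.26 on the log2 scale (adjusted p = 2.0e-04, edgeR quasi-likelihood test). *Htra3*, a relative of *Htra1*, rose by 1.41 (adjusted p = 7.0e-05, edgeR quasi-likelihood test).

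All 8 genes of the growth hormone axis were tested, and 5 were higher and 2 lower in the clones together (87.5% called). *Stat5a*, a transcription factor gene of growth hormone signalling, rose from 24.7 ± 2.28 CPM (SD, n = 3) in Vcam1ctrl to 115 ± 16.7 CPM (SD, n = 3) in Vcam1KO1 and 41.7 ± 5.12 CPM (SD, n = 3) in Vcam1KO2 cells. *Cish* and *Socs1*, feedback inhibitors of JAK and STAT signalling, rose by 2.42 and 1.66 on the log2 scale, and *Socs2*, the inhibitor best known for the growth hormone receptor, had a log2 fold change of -1.46 (adjusted p = 0.0040, 0.0093 and 0.0052, edgeR quasi-likelihood test). Without replicate 2 of Vcam1ctrl 3 of these 8 genes were higher and 1 lower, while the counts for all genes went from 3839 higher and 3752 lower of 17672 to 2771 and 3251 of 18447.

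Of the 18 receptor adaptors and phosphatase genes, 5 were higher and 8 lower in the clones together (72.2% called), with a median log2 fold change of -0.53. *Grb10*, an imprinted gene whose product binds and restrains the insulin and IGF1 receptors, fell from 195 ± 45.6 CPM (SD, n = 3) in Vcam1ctrl to 8.90 ± 2.87 CPM (SD, n = 3) in Vcam1KO1 cells and lay at 0 to 2 counts in the Vcam1KO2 libraries. *Grb7*, of the same family, fell from 72.7 ± 9.07 CPM (SD, n = 3) to 0.0641 ± 0.0193 CPM (SD, n = 3) in Vcam1KO1 and 0.521 ± 0.046 CPM (SD, n = 3) in Vcam1KO2 cells. *Grb14*, the other member of that family, rose from 9.01 ± 0.60 CPM (SD, n = 3) to 188 ± 0.93 CPM (SD, n = 3) in Vcam1KO1 and 92.9 ± 15.5 CPM (SD, n = 3) in Vcam1KO2 cells. The log2 fold changes of the clones together were -5.45 for *Grb10*, -7.97 for *Grb7* and 3.96 for *Grb14* (adjusted p = 0.019, 3.7e-05 and 4.5e-05, edgeR quasi-likelihood test). *Gab1*, a docking protein gene, rose by 1.84 (adjusted p = 0.014, edgeR quasi-likelihood test).

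Further downstream, 10 of 33 genes of PI3K, AKT and mTOR were higher and 4 lower in the clones together (42.4% called), with a median log2 fold change of 0.26. *Pik3r3*, a regulatory subunit gene of PI3-kinase, rose by 2.28 and *Akt2* by 0.85 on the log2 scale, and *Deptor*, an inhibitor of mTOR, had a log2 fold change of -2.47 (adjusted p = 0.019, 0.0099 and 0.0024, edgeR quasi-likelihood test). Without replicate 2 of Vcam1ctrl 5 of the 33 were higher and 3 lower.

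Of 10 RAS and MAPK genes, 1 was higher and 4 lower in the clones together (50% called), among them *Nras* (log2 fold change -0.53) and *Map2k1* (-0.46), with adjusted p = 0.030 and 0.0095 (edgeR quasi-likelihood test). Taken by clone, *Nras* was called in Vcam1KO1 (-0.72, adjusted p = 0.0038) but not in Vcam1KO2 (-0.37, adjusted p = 0.080, same edgeR test). Of 13 targets of FOXO factors, which AKT restrains, 10 were tested, and 4 were higher and 1 lower in the clones together (50% called). *Pdk4*, a kinase gene of fuel choice, rose from 0.731 ± 0.609 CPM (SD, n = 3) in Vcam1ctrl to 29.2 ± 10.1 CPM (SD, n = 3) in Vcam1KO1 and 13.9 ± 3.77 CPM (SD, n = 3) in Vcam1KO2 cells. *Pik3ip1*, an inhibitor of PI3-kinase, rose by 3.43, *Sesn1* by 2.72 and *Sesn3* by 2.57 on the log2 scale (adjusted p = 4.1e-04, 5.6e-04 and 0.0027, edgeR quasi-likelihood test). The median of the 10 targets was 0.08, near that of all genes (0.07). *Irs2* is itself known as a FOXO target and was not among them.

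**Figure D5:**
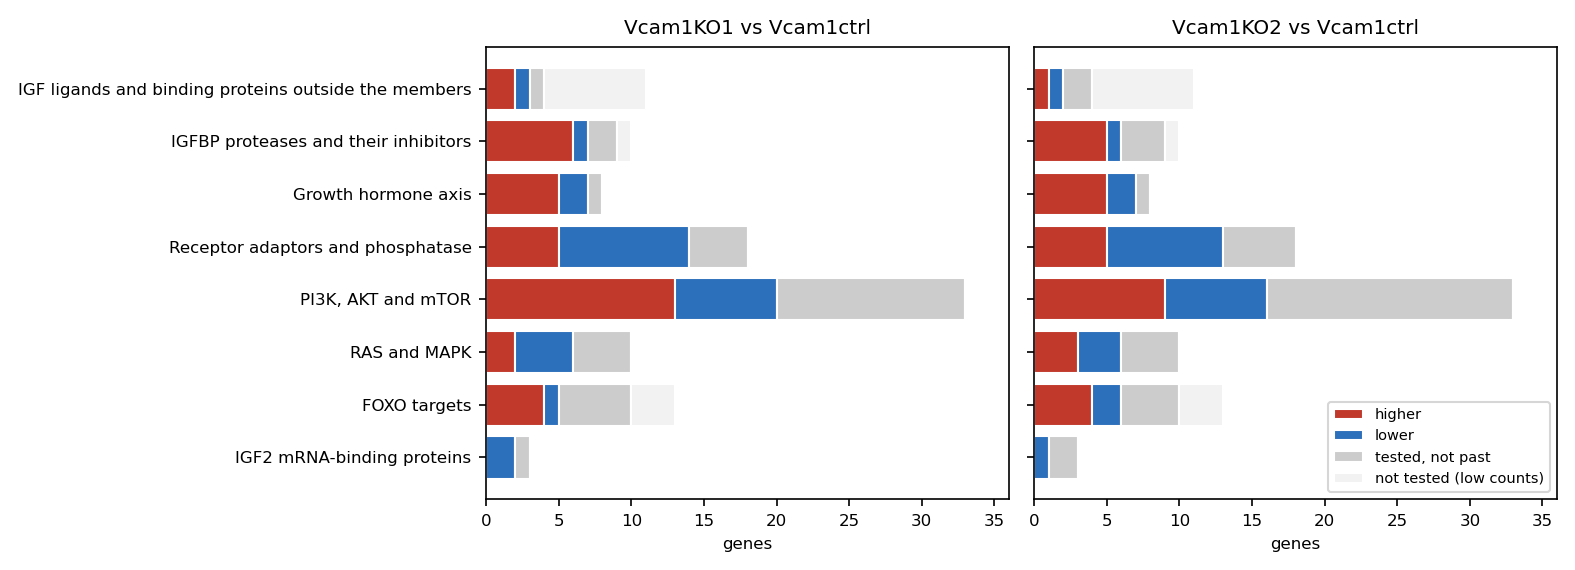
Number of genes in each pathway list that were higher, lower, not past the threshold or not tested in Vcam1KO1 (left) and Vcam1KO2 (right) against the same 3 control libraries, by an adjusted p under 0.05 in edgeR's quasi-likelihood test. In PI3K, AKT and mTOR 13 genes were higher and 7 lower of 33 in Vcam1KO1 and 9 and 7 in Vcam1KO2 (60.6% and 48.5% called). In the growth hormone axis 5 were higher and 2 lower of 8 in each clone (87.5% called). Of all genes tested, 59.9% were called in Vcam1KO1 and 51.4% in Vcam1KO2.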

How the data were processed

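The 10 genes and the gene lists were chosen with earlier results of these data known. The authors made stranded paired-end mRNA libraries from 3 passages of each condition, pseudoaligned the reads with kallisto 0.46.1 to GENCODE vM24 transcripts of GRCm38 (mm10), and deposited estimated counts per gene symbol without normalization. The step that summed transcripts to genes is not given in the sources used here. The deposited estimated counts were whole numbers and were used as they were. Passage was not used as a term, and p-values measure the spread between these libraries only.

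Counts were scaled with TMM, filtered with filterByExpr (17672 genes) and tested with edgeR 4.0.16 in R 4.3.3 (quasi-likelihood, Benjamini-Hochberg adjustment, threshold 0.05). The clones together were compared with control in a fit with 2 groups, and each clone, and the clones with each other, in a fit with 3 groups over 9 libraries. Ratios and sums were compared with two-sided exact permutation tests over libraries, with 0.5 counts added to each count of a ratio. These tests took each library as a unit, although the libraries of a clone share 1 founding cell. At 53415907 to 125223073 counts per library, 3 counts, taken as the limit of detection, were worth 0.0240 to 0.0562 CPM. All 10 genes are named. From each list of other pathway genes at most 4 were named, those with the largest change in the clones together among called genes that averaged 5 CPM or more and whose clone and control libraries did not overlap. Lengths are of the longest coding transcript in GENCODE vM21. Alternatives were limma-voom (limma 3.58.1), DESeq2 1.42.0, other normalizations and filters, a demand for a 1.5-fold change, other fits and leaving out each library. In counts simulated with a 2-fold change in the comparison of the clones together with control, 101 of 196 changed genes were recovered with their true sign, and 6 unchanged genes were called, of 17234 genes in that run. Against control, fewer of the 196 were recovered in a single clone, 69 in Vcam1KO1 and 65 in Vcam1KO2, with 8 and 3 unchanged genes called. The simulated clones did not differ from each other, so these numbers need not hold for the measured clones, which differed. Protein sequences were not analysed here. Some alleles and genes of the lists are not reported here by name.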

Additional observations from a re-analysis of the deposited data

Results flagged for a closer look

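In replicate 3 of Vcam1KO1, 3 of the 10 genes stood far from the other 5 clone libraries, by Dixon's criterion for 6 values (a gap of more than 0.625 of the range). *Igf1* was at 187 CPM there, *Irs2* at 61.5 CPM and *Igfbp5* at 549 CPM, each the highest of the 6 clone libraries. Each of the 10 genes was tested once, and chance alone would give such a value in about 1 of 20 groups. The 6 libraries come from 2 clones, so that they are not replicates of a single culture. The same library had the lowest summed proliferation markers (210 CPM), and the part of growth state in these values was not tested.

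The clones differed from each other, tested by their own contrast in edgeR's quasi-likelihood fit, at *Igfbp2* (2.57 on the log2 scale, higher in Vcam1KO1), *Igfbp3* (-1.92, lower in Vcam1KO1) and *Igfbp5* (5.28, higher in Vcam1KO1). All 3 are binding protein genes, but so are *Igfbp4* and *Igfbp7*, which were not called between the clones. Each held its direction in 3 of 3 libraries of Vcam1KO1 against 3 of 3 of Vcam1KO2, and each stayed past the threshold without replicate 3 of Vcam1KO1. Such separation was common, since the clones did not overlap at 54.9% of all genes tested. This contrast called 38.7% of all genes, and the share among the IGF genes was no higher. The 3 genes were picked by the same contrast, so that their separation is not further evidence.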

How the results depend on the processing

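The number of the 10 genes called in the clones together was 7 when the mean of both clone contrasts replaced the pooled comparison, so that differences between clones left the error term. The other settings kept the 4 comparisons' numbers within 1.5 times. Without any 1 control library the difference in the log2 ratio of *Irs2* to *Irs1* for the clones together lay between -3.64 and -2.69, at an exact permutation p of 0.071, the smallest that 6 against 2 libraries allow. The ratio of *Insr* to *Igf1r* in Vcam1KO1 against control, 0.02 with all libraries, changed sign without replicate 3 of Vcam1KO1 (-0.23) and without replicate 3 of Vcam1ctrl (-0.12), with leave-one-out values from -0.23 to 0.18.

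Otherwise uncalled log2 differences changed sign in 19 cases, and with all libraries these differences lay between -0.10 and 0.03 except for *Igf1* between the clones (0.96). When 1 library was left out, *Igf1r* ran from -0.35 to 0.18 in the clones together, -0.38 to 0.17 in Vcam1KO1, -0.31 to 0.20 in Vcam1KO2 and -0.17 to 0.13 between the clones, and *Insr* from -0.21 to 0.057 in Vcam1KO1. Between the clones *Igf1* ran from -0.060 to 1.3, *Irs1* from -0.23 to 0.037, *Igfbp4* from -0.45 to 0.093 and *Igfbp7* from -0.20 to 0.19. Between the clones *Igf1r* was also 0.042 with upper-quartile normalization and 0.0072 with a filter at a mean of 1 CPM, *Irs1* 0.018 with upper-quartile normalization and *Igfbp7* -0.0029 with no filter. The cause was not tested. In 23 cases an uncalled value passed under an alternative, with the same direction, most often *Irs2* in the clones together (6) and *Insr* in Vcam1KO2 (7).

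No paired analysis was possible because the labels give the libraries no shared replicate numbers. Another normalization moved the median of all genes by at most 0.07 on the log2 scale. With 3 libraries per group the spread between libraries, rather than depth, limits the smaller differences, and depth limits the folds of *Igf1* and *Igfbp2*, whose control libraries held 2 to 12 counts. Each clone is 1 founding cell, and counts per gene do not tell isoforms apart.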

Other observations

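Among the IGF genes outside the 10, *Igfbp6*, a binding protein gene with a preference for IGF2, was chosen here after its values were seen. It stood at 4.83 ± 0.36 CPM (SD, n = 3) in Vcam1ctrl, 0.184 ± 0.062 CPM (SD, n = 3) in Vcam1KO1 and 2.75 ± 0.89 CPM (SD, n = 3) in Vcam1KO2 cells. The log2 fold change was -4.72 in Vcam1KO1 and -0.81 in Vcam1KO2 (adjusted p = 4.4e-06 and 0.043, edgeR quasi-likelihood test), and the clones differed by -3.91 (adjusted p = 5.9e-05, same edgeR test). *Igfbp1*, the binding protein gene that hepatocytes express under insulin control, was at 0.0858 ± 0.0608 CPM (SD, n = 3) in Vcam1ctrl cells and had 0 counts in the Vcam1KO2 libraries. Of the 3 genes for IGF2 mRNA-binding proteins, 1 was lower and 0 higher in the clones together (33.3% called, beside 43.0% of all genes tested). At an unadjusted p under 0.05 in edgeR 2 were lower and 0 higher. With limma-voom and with DESeq2, at an adjusted p under 0.05, 2 were lower and 0 higher.

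The 3 genes with the fewest CpG dinucleotides in their promoter windows, *Igf1* (5), *Igfbp5* (10) and *Igfbp2* (14 and 11), were also those with the largest log2 fold changes in Vcam1KO1 (10.25, 4.51 and 9.75). In Vcam1KO2 the order was different, with *Igfbp5* at -0.77 and not called and *Irs2* (34 CpG) at -2.78. This was noticed after the values were seen, rests on 9 genes and was not tested. The only *Igf1* window lies inside the gene as GENCODE places it, so the sequence before its outermost start was not counted. Of the biliary markers, *Spp1*, the osteopontin gene, was at 2066 to 3133 CPM in Vcam1ctrl and 7459 to 10797 CPM in the clone libraries, and *Krt8* at 5201 to 5570 CPM in Vcam1ctrl and 0.0798 to 0.497 CPM in the clones, both named after their values were seen. The summed levels of 8 haematopoietic markers ran from 5.11 to 20.7 CPM and those of 8 endothelial markers from 1.2 to 5.00 CPM over all libraries.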
